A study of Mus musculus with 2 samples.

Results

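The genes described here encode the chains of sarcomeric myosin in heart muscle and the proteins that bind or modify them: Myh6, Myh7, Myh7b, Myl2, Myl3, Myl4, Myl7, Mybpc3, Mybphl and Mylk3. They were chosen by name, by matching the Ensembl gene identifier of each row, without its version, to the gene name in the GENCODE M21 annotation. All 10 were found among the 42462 annotated genes of the gene tables, 21461 of which are nuclear protein-coding genes. The transcript tables list 47 transcripts of these genes, and 45 of them have an entry in M21. Total RNA of whole mouse heart was sequenced in 2 libraries of a single group, each from hearts of healthy B6NCrl embryos at embryonic day 16.5, with male and female embryos pooled. No treatment, mutation or second tissue is part of the design, so every comparison below is between genes, between transcripts or between these libraries. The pool behind replicate 2 held hearts of 41 embryos, and the labels do not state that number for replicate 1. Both pools carry the same donor identifier, and that the replicates are biological rests on the labels.

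A thick filament of the sarcomere is built from hexamers of a pair of myosin heavy chains, each of which carries an essential and a regulatory light chain on its lever arm. Mouse heart uses alpha-myosin (Myh6) and beta-myosin (Myh7) heavy chains, with beta-myosin the main form of the ventricle before birth. The light chains have forms that are mainly ventricular, Myl3 (essential) and Myl2 (regulatory), and forms that become mainly atrial, Myl4 (essential) and Myl7 (regulatory). Cardiac myosin-binding protein C (Mybpc3) sits along the thick filament and modulates crossbridges, and the cardiac kinase Mylk3 phosphorylates the regulatory light chain.

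The libraries held 37160624 estimated counts in replicate 1 and 40360242 in replicate 2, of which ERCC spike-in RNAs, added in known amounts, took 1.62% and 3.41%. Levels are given in TPM, the share of a transcript among all transcripts, which the authors corrected for length and by which genes can be compared with each other. The identity of the tissue was checked on 9 heart muscle genes outside the group, which summed to 31555 TPM in replicate 1 and 31329 TPM in replicate 2. Markers of other tissues were also present and uneven: 6 lung epithelium genes summed to 961 and 104 TPM, 8 thymus genes to 83.4 and 215 TPM, and 8 red blood cell genes to 78155 and 66000 TPM. In whole tissue, fewer cells of a type and less RNA per cell cannot be told apart.

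All 10 genes were expressed in both libraries, and together they held 22357 TPM in replicate 1 and 20185 TPM in replicate 2. That is 2.73% and 2.59% of the TPM of all nuclear protein-coding genes. For scale, 59.1% of the nuclear protein-coding genes, 12676 in number, had 1 TPM or more in each library, and their median level was 15.9 TPM. The group spanned from Myl2, which ranked 7 by mean TPM among nuclear protein-coding genes, to Myh7b, which ranked 5554. Between these ends Myl3 ranked 11, Myl7 14, Myh7 18, Myl4 54, Mybpc3 98, Myh6 101, Mylk3 568 and Mybphl 2480.

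**Figure D1:**
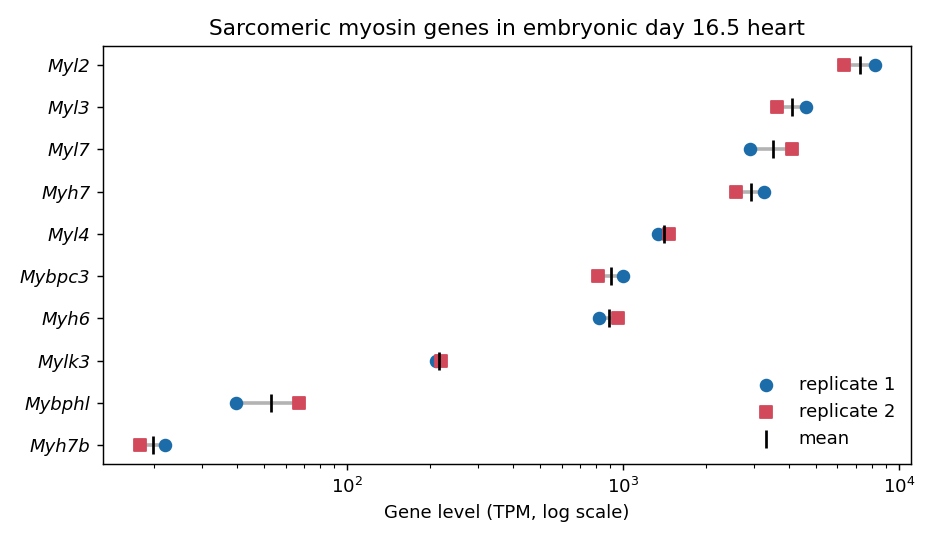
Level of each of the 10 genes on a log TPM axis, with a circle for replicate 1, a square for replicate 2 and a bar at their mean. Myl2 lies highest, at 8176 and 6344 TPM, Myh7b lowest, at 22.0 and 17.8 TPM, and the symbols of Myl3, Myl7 and Myh7 interleave.

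Neighbours in this order were compared within each library. The order held in both libraries for 6 of the 9 neighbouring pairs. In each of these 6 the gap in mean TPM was larger than the SDs of the 2 genes combined (root of their summed squares). For example, Myl2 exceeded Myl3 by 0.83 on the log2 scale of TPM in replicate 1 and by 0.81 in replicate 2. The order turned around for the other 3 pairs. Myl3 over Myl7 was 0.67 and -0.18, Myl7 over Myh7 was -0.16 and 0.67, and Mybpc3 over Myh6 was 0.30 and -0.24. Myl3 exceeded Myh7 in both libraries, but the place of Myl7 beside them cannot be read from these libraries, and neither can the order of Mybpc3 and Myh6.

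Beta-myosin was the most abundant heavy chain. Myh7 (ENSMUSG00000053093.11) stood at 3244 TPM in replicate 1 and 2575 TPM in replicate 2 (2909 ± 472, SD, n = 2). Its partner Myh6 (ENSMUSG00000040752.11), the alpha chain that takes over in the mouse ventricle after birth, stood at 818 and 959 TPM (888 ± 99.8). Myh7 was higher in replicate 1 and Myh6 in replicate 2, so the alpha chain made up 20.0% of heavy chain TPM in the first and 27.0% in the second (23.5% ± 4.93). The third heavy chain, Myh7b (ENSMUSG00000074652.3; chromosome 2, 155611212 to 155634307, plus strand), an ancient relative of the cardiac chains, was far lower, at 22.0 and 17.8 TPM (19.9 ± 2.98). It reached 0.678% and 0.690% of the Myh7 level, a ratio that hardly moved between libraries.

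The alpha and beta genes lie head to tail on the minus strand of chromosome 14 (mm10), Myh7 at 54970684 to 54994626 and Myh6 at 54941921 to 54966927, with 3756 nt between them. On the opposite strand, the noncoding RNA gene Mhrt (54968678 to 54974349), named as a myosin heavy chain associated transcript, starts inside that gap and runs over 3666 nt of the Myh7 gene. Mhrt stood at 41.6 and 37.9 TPM, with 811 and 815 estimated counts. Its longer transcript in the tables shares 463 of 828 exonic nt with the Myh7 mRNA on the other strand. Whether reads were assigned by strand is not given in the sources used here, so reads of Mhrt and Myh7 in those bases may not be told apart.

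**Figure D2:**
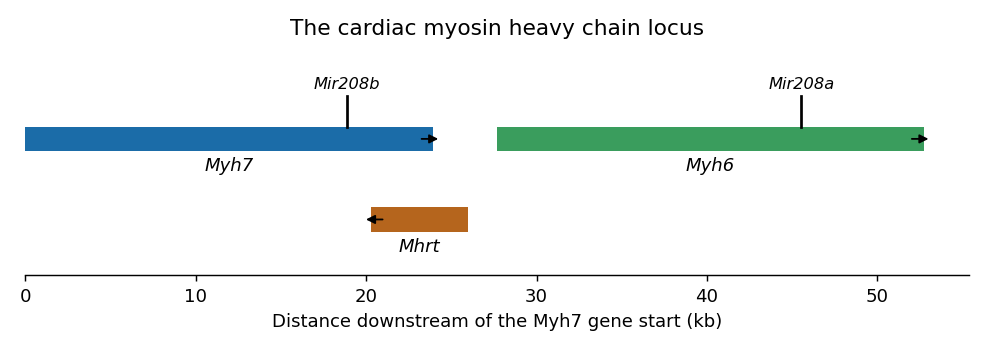
Map of the cardiac myosin heavy chain locus, with distance downstream of the Myh7 gene start in kb on the x axis, gene bodies as bars, arrows for the direction of transcription and lines for the microRNA genes. Myh7 comes first and Myh6 follows after a gap of 3756 nt, and Mhrt is transcribed the other way, from inside the gap across 3666 nt of Myh7.

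Each heavy chain gene also carries a microRNA in an intron. The mature forms are shown, 5′ to 3′, because the host genes differ widely in level while the seeds, bases 2 to 8 in capitals, are nearly the same. The sequences are those of RefSeq (GRCm38.p6).
mmu-miR-208a-3p: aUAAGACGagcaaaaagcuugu
mmu-miR-208b-3p: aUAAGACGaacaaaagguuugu
mmu-miR-499-5p: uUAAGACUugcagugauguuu
miR-208a lies in intron 29 of Myh6-201 (chr14:54949072-54949093, minus strand), miR-208b in intron 31 of Myh7-201 (chr14:54975710-54975731, minus strand) and miR-499 in intron 19 of Myh7b-201 (chr2:155622893-155622913, plus strand). miR-208a and miR-208b share 7 of 7 seed bases and 19 of 22 bases in all, and miR-499 shares 6 of 7 seed bases with each. Their genes Mir208a, Mir208b and Mir499 were listed at 0 counts in both libraries. Their hairpins are 83, 77 and 79 nt long, and the libraries were made from RNA longer than 200 nt, so a count of 0 here says nothing about the mature microRNAs.

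How far reads can separate the alpha and beta chains was read from their mRNAs. Their coding sequences are 91.4% identical, against 71.6% for Myh7 and Myh7b. Of all stretches of 100 nt in the main transcripts, 687 of 6014 in Myh6-201 (11.4%) and 687 of 6036 in Myh7-201 (11.4%) occur letter for letter in the other gene. The main transcripts of the other 8 genes share 0 such stretches with any other annotated gene on the same strand. Stretches, exons and introns follow M21, where Myh6-201 has 6113 nt and Myh7-201 has 6135 nt. Their deposited lengths are 6079 and 6139 nt, so their exact exons in the authors' annotation are not known. Only Myh6 and Myh7 had estimated counts that were not whole numbers: 125360.51 and 161801.89 for Myh6, 519919.9 and 458258.62 for Myh7. The authors' posterior SD of these counts was 124 for Myh6 in each library and 125 for Myh7, which is small beside the counts.

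The longest run that the alpha and beta mRNAs share is 245 nt of coding sequence in the rod of the heavy chain. It is printed once, since it is the same in both genes, and a read that falls inside it cannot be assigned to either.
Myh6 and Myh7: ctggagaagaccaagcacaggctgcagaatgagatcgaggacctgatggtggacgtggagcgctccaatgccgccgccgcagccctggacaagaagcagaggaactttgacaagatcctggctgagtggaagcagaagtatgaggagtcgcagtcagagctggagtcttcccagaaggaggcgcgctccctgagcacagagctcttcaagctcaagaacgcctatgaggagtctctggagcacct
In Myh6-201 it spans exons 30 and 31 (chr14:54948327-54948725, minus strand), and in Myh7-201 exons 32 and 33 (chr14:54974947-54975347, minus strand), with the intron between them spliced out.

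Among the essential light chains the ventricular form was the more abundant. Myl3 (ENSMUSG00000059741.9; chromosome 9, 110741861 to 110769798, plus strand), which slow skeletal muscle also uses, stood at 4603 and 3616 TPM (4109 ± 698). Myl4 (ENSMUSG00000061086.8; chromosome 11, 104550663 to 104595753, plus strand), the embryonic and atrial form, stood at 1340.1 and 1472 TPM (1406 ± 93.2). Myl3 was the higher in both libraries, and the libraries differed in opposite directions for these genes. Myl4 made up 22.5% of the TPM of Myl3 and Myl4 in replicate 1 and 28.9% in replicate 2 (25.7% ± 4.51). The coding sequences of the pair are 72.9% identical.

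The regulatory light chains showed the same order of forms. Myl2 (ENSMUSG00000013936.8; chromosome 5, 122100951 to 122113472, plus strand), the ventricular form and the substrate of Mylk3, stood at 8176 and 6344 TPM (7259.9 ± 1295). Myl7 (ENSMUSG00000020469.8; chromosome 11, 5896637 to 5898782, minus strand), the form of the early heart tube and later of the atria, stood at 2899 and 4102 TPM (3501 ± 851). Myl2 was higher in replicate 1 and Myl7 in replicate 2, and Myl2 exceeded Myl7 in both. The share of Myl7 in the TPM of Myl2 and Myl7 was 26.2% in replicate 1 and 39.3% in replicate 2 (32.7% ± 9.26). With 61.1% identity, their coding sequences are further apart than those of the essential pair.

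**Figure D3:**
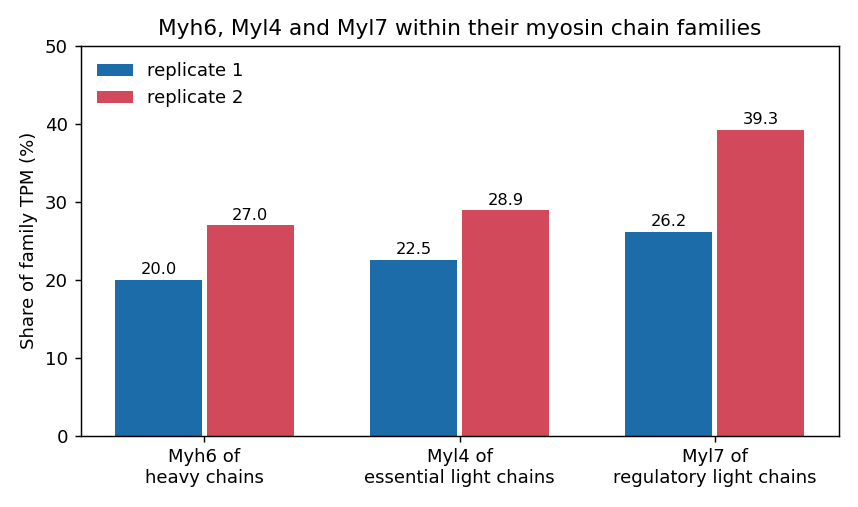
Share of Myh6 in the TPM of Myh6, Myh7 and Myh7b, of Myl4 in Myl3 and Myl4, and of Myl7 in Myl2 and Myl7, in percent, with a bar for each library. Each share is higher in replicate 2: 27.0% against 20.0%, 28.9% against 22.5%, and 39.3% against 26.2%.

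In all 3 families the share of the form listed here as alpha or atrial was higher in replicate 2, by 6.97 percentage points for Myh6, 6.38 for Myl4 and 13.1 for Myl7. Of 12 markers of the atria outside the group, most moved with these shares. They summed to 4309 TPM in replicate 1 and 6124 TPM in replicate 2, mostly from the atrial peptide gene Nppa (3701 and 5284 TPM), followed by the calcium pump regulator Sln (396 and 605 TPM) and the gap junction gene Gja5 (71.9 and 78.7 TPM). Nr2f2 (11.9 and 8.76 TPM), Kcna5 (8.60 and 7.22 TPM) and Nr2f1 (2.22 and 1.64 TPM) were lower in replicate 2 and are named after their values were seen. The 8 ventricular markers outside the group summed to 1194 and 1236 TPM, mostly from Pln (759 and 820 TPM). By scaled counts, 3 of these 8 were higher and 5 lower in replicate 2. How far the amount of atrial tissue in a pool sets the shares was not tested.

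A thick filament needs 1 light chain of each kind per heavy chain, and the mRNA sums were not in that proportion. Heavy chain genes summed to 4083 and 3552 TPM (3818 ± 376). Essential light chains (Myl3 and Myl4) summed to 5943 and 5088 TPM (5515 ± 605). Regulatory light chains (Myl2 and Myl7) summed to 11075 and 10446 TPM (10760.5 ± 445). The essential sum leaves out the fast skeletal essential light chain Myl1 (278 and 451 TPM). All 3 sums include transcripts with no coding sequence. In the essential sum the highest by mean were Myl4-204 (407 and 372 TPM) and Myl3-204 (74.2 and 74.4 TPM). The highest by mean was Myl2-210 (227 and 58.3 TPM) in the regulatory sum and Myh7-202 (22.1 and 16.95 TPM) in the heavy chain sum. Regulatory over heavy chain mRNA was 2.71 in replicate 1 and 2.94 in replicate 2, and essential over heavy chain mRNA was 1.46 and 1.43. The regulatory light chains therefore exceeded the essential ones in both libraries, at 1.86 and 2.05 times their level. These are ratios of length-corrected mRNA levels between genes of very different length, and no protein was measured.

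Of the myosin-binding proteins, Mybpc3 (ENSMUSG00000002100.11; chromosome 2, 91118144 to 91136516, plus strand) stood at 1005 TPM in replicate 1 and 812 TPM in replicate 2 (909 ± 136). It was lower in replicate 2, as Myh7 was, and its level was 24.6% and 22.9% of the heavy chain sum. Mybphl (ENSMUSG00000068745.5; chromosome 3, 108364911 to 108380057, plus strand), a relative of myosin-binding protein H that is known from the atria and the conduction system, stood at 39.8 and 66.9 TPM (53.3 ± 19.1). It rested on 1251 and 2332 counts, and it reached 3.96% of the Mybpc3 level in replicate 1 and 8.23% in replicate 2. Mybphl had the largest difference between the libraries of the 10 genes.

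The light chain kinase Mylk3 (ENSMUSG00000031698.10; chromosome 8, 85324303 to 85386345, minus strand) was the steadiest member, at 211 and 220.3 TPM (216 ± 6.50). It stood at 1.91% and 2.11% of the summed level of the regulatory light chains, its substrates. Among 8 other genes of light chain phosphorylation, 6 reached 1 TPM in both libraries. The highest were the phosphatase catalytic subunit Ppp1cb (87.0 and 93.3 TPM) and the targeting subunits Ppp1r12a (43.7 and 39.6 TPM) and Ppp1r12c (35.1 and 24.4 TPM). Mylk3 thus stood above every other kinase or phosphatase gene of that list in both libraries.

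Most of these genes were read from 1 main transcript. Mybphl and Myl7 have 1 listed transcript each. The main transcript held 98.35% and 98.31% of gene TPM for Myh7 (Myh7-201), 95.69% and 94.82% for Myh6 (Myh6-201), 94.92% and 95.42% for Mybpc3 (Mybpc3-203), and 94.18% and 95.89% for Myl2 (Myl2-201). Myh7b, Myl3, Myl4 and Mylk3 were split further, with more than 1 transcript at 5% or more of the gene. Such shares are the authors' estimates from reads that often match several transcripts.

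**Figure D4:**
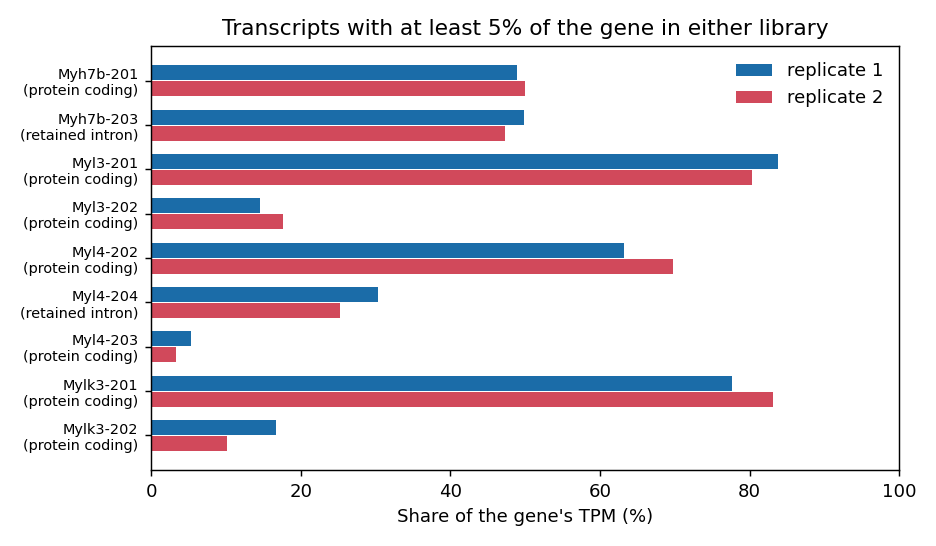
Transcripts of Myh7b, Myl3, Myl4 and Mylk3 that held at least 5% of gene TPM in either library, with their M21 class and a bar for each library. Myh7b is split almost evenly between Myh7b-201 (48.88% and 49.91%) and the retained intron transcript Myh7b-203 (49.87% and 47.24%), and Myl4-204, also a retained intron transcript, holds 30.37% and 25.26%.

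Of the low TPM of Myh7b, close to the same share fell on the full-length coding transcript Myh7b-201 (10.8 and 8.87 TPM) as on Myh7b-203 (10.97 and 8.40 TPM). Myh7b-203 is a fragment of 674 nt that M21 classes as a retained intron, against 6163 nt for Myh7b-201. It held 168 and 143 counts, or 8.80% and 8.20% of the counts of the gene, and Myh7b-201 held 91.0% and 91.3%. The even split is thus one of length-corrected levels, and by counts the coding transcript had over 90% in both libraries.

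For Myl4, the coding transcript Myl4-202 (900 nt) held 63.18% and 69.74% of gene TPM. The retained intron transcript Myl4-204 (677 nt) held 30.37% and 25.26%, with 6284 and 6372 counts. It has 77 nt of exon that Myl4-202 lacks (chr11:104580325-104580401) and shares its other 600 nt with Myl4-202. Reads inside the shared bases fit both, so this share depends on how the authors' estimate divided them. Myl4-203 held 5.37% and 3.37% and differs from Myl4-202 at its 5′ end only, outside the coding sequence, which is the same. Myl4-201, which starts at 104550663, far upstream of the start of Myl4-202 at 104577281, had 0 counts in both libraries. Reads of Myl4 were thus given to the downstream starts. With only transcripts classed as protein coding, Myl4 made up 16.9% and 23.4% of essential light chain TPM.

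Myl3-201, which encodes the whole light chain (612 coding nt), held 83.86% and 80.36% of Myl3 TPM, and the shorter Myl3-202 (381 coding nt), which starts further downstream, held 14.48% and 17.58%. The lengths of both in the deposited tables differ from those in M21, so their exact exons in the authors' annotation are not known. For Mylk3, Mylk3-201 (2385 coding nt) held 77.59% and 83.15%. Mylk3-202 (2172 coding nt) held 16.67% and 10.10% and lacks 189 coding nt of Mylk3-201 (chr8:85364689-85364877). Towards the 3′ end the coding sequences differ too, with 57 coding nt only in Mylk3-201 and 33 only in Mylk3-202. Its 2170 and 1522 counts make Mylk3-202 lower in replicate 2, while Mylk3-201 was higher, with 15738 and 19540 counts.

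Transcripts under 5% of their gene in both libraries, such as those below, were named after their values were seen. Myl2-210, classed as a processed transcript with no coding sequence, held 2230 counts in replicate 1 and 637 in replicate 2, or 2.78% and 0.92% of Myl2 TPM. Mybpc3-201 held 533 and 611 counts, or 0.49% and 0.63% of Mybpc3 TPM. Inside the coding sequence it lacks 3 bases of Mybpc3-203, CAG, the first bases of exon 11 of Mybpc3-203 (chr2:91122636-91122638, plus strand). The join is shown with 30 nt on either side, with these 3 bases in capitals in the main transcript.
Mybpc3-203: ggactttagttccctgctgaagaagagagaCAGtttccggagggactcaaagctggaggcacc
Mybpc3-201: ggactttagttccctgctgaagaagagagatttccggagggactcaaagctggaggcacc
Mybpc3-203 was thus by far the more abundant of the 2 in both libraries. The transcripts also differ by 6 nt at the 3′ end, so the estimated split need not rest on the 3 bases alone. Mybpc3-202, which lacks the same 6 nt but keeps these 3 bases, held 4.59% and 3.96% of Mybpc3 TPM.

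The libraries were compared gene by gene by the log2 ratio of replicate 2 over replicate 1, from counts scaled to library size (CPM) and by TMM, a factor that makes the bulk of genes equal. With 1 library on each side there is no test of this difference, and it describes these pools. Over the 12985 annotated genes with a mean of at least 100 counts, the median ratio was -0.01, and the central 90 percent lay between -0.40 and 0.56. The ratios of the 10 genes had a median of -0.05 and ran from -0.32 to 0.79. 5 were higher in replicate 2 (Mybphl 0.79, Myl7 0.55, Myh6 0.26, Myl4 0.20, Mylk3 0.14) and 5 were lower (Myl3 -0.32, Myl2 -0.31, Myh7 -0.29, Mybpc3 -0.26, Myh7b -0.24). The 95% counting intervals of these ratios were narrow, 0.53 to 0.56 for Myl7 and 0.69 to 0.89 for Mybphl, and cover counting error only. The authors' credibility intervals of TPM did not overlap between the libraries for any of the 10, although for 7 of them TPM lay above its own interval in both.

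Past a 1.5-fold difference, 1 of the 10 genes, Mybphl, was higher in replicate 2, where 620 of the 12985 genes were (4.77%), and 0 were lower, where 287 genes were (2.21%). Past 1.2-fold, 2 were higher (Mybphl and Myl7), with 11.2% of all genes, and 3 were lower (Myl2, Myl3 and Myh7), with 11.1% of all genes. Myh6 and Mybpc3 lay just inside that line. Myl7 stood at percentile 94.9 of all ratios and Mybphl at 96.5, and Myl3 at 7.63 was the lowest of the 10. Fewer of the highly expressed genes were past that line. Of the 1322 nuclear protein-coding genes that averaged 100 TPM or more, 47 (3.56%) were past 1.2-fold higher and 57 (4.31%) past 1.2-fold lower. Of the 8 myosin genes at that level, Myl7 was among the first and Myl2, Myl3 and Myh7 among the second.

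**Figure D5:**
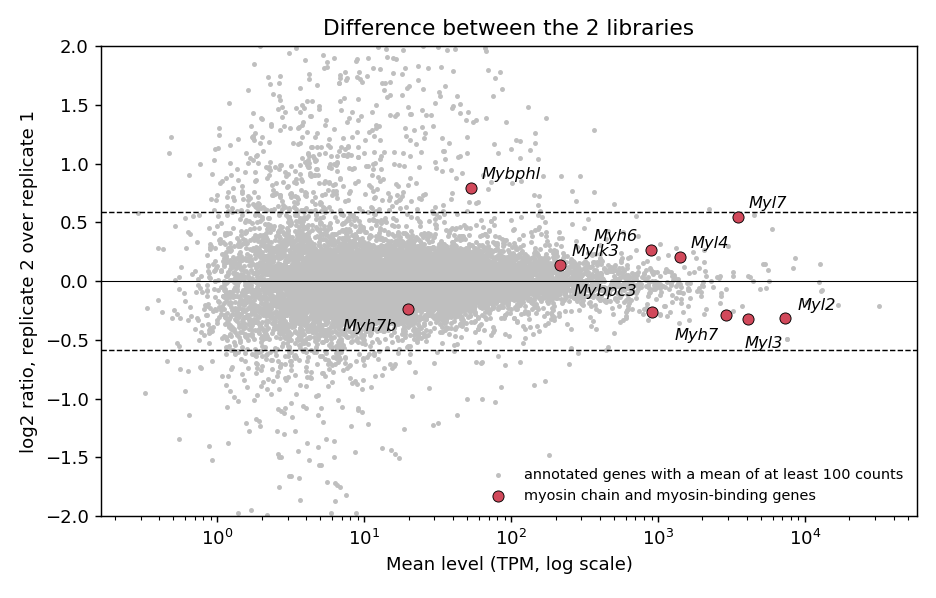
The log2 ratio of replicate 2 over replicate 1 against mean TPM (log axis), with grey points for annotated genes with a mean of at least 100 counts, red points for the 10 myosin genes, and dashed lines at a 1.5-fold difference. Mybphl lies above the upper line and Myl7 just under it, Myl2, Myl3, Myh7, Mybpc3 and Myh7b lie below 0, and 115 genes lie beyond the plotted range.

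The marker genes moved as follows on the same scale. Of 11 atrial markers with at least 100 counts, 8 were higher in replicate 2 and 3 lower, with 3 past 1.5-fold higher and a median of 0.27. Of 8 ventricular markers, 3 were higher and 5 lower, with 0 past 1.5-fold and a median of -0.14. The 9 heart muscle genes had a median of -0.0037 and 0 past 1.5-fold in either direction. Smooth muscle genes were lower in 6 of 6 (median -0.25), and of 8 fibroblast genes 6 were lower (median -0.30). The part of these tissues in the ratios of the myosin genes was not tested.

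The other sarcomeric heavy chains were low. Of 6 skeletal and developmental heavy chain genes, 2 reached 1 TPM in both libraries: the perinatal chain Myh8 (2.14 and 6.04 TPM) and the embryonic chain Myh3 (1.23 and 3.58 TPM). Both were past 1.5-fold higher in replicate 2, and the fast chain Myh4 had 0 counts in both. Of 3 further light chain genes, Myl1, the fast skeletal essential light chain that the embryonic heart also makes, was the highest at 278 and 451 TPM, followed by the fast regulatory light chain Mylpf at 12.3 and 22.2 TPM and by Myl6b at 0.44 and 0.80 TPM. Myl1 thus reached 20.8% and 30.7% of the Myl4 level, and 4.47% and 8.15% of the summed TPM of Myl1, Myl3 and Myl4. Of the other binding proteins, slow skeletal Mybpc1 (3.31 and 7.70 TPM), fast skeletal Mybpc2 (3.87 and 3.56 TPM) and Mybph (0.810 and 0.510 TPM) were all far below Mybpc3.

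Skeletal muscle markers, a list that includes Mylpf, Myh3 and Myh8 themselves, were mostly higher in replicate 2. Not all of the genes above were: Mybpc2 stayed level (log2 ratio -0.07), and Mybph, on 37.2 and 26.3 counts, was lower. Of 10 such markers with at least 100 counts, 7 were past 1.5-fold higher in replicate 2, with Mylpf, Myh3 and Myh8 among them. None of the 10 was past 1.5-fold lower, and the median was 1.03. The 14 listed markers summed to 2964 and 2989 TPM, led by Ckm, Mb and Acta1, which heart muscle also expresses. Of the myogenic factors on the list, all named after their values were seen, Myog stood at 1.66 and 2.58 TPM, while Myod1 (0.19 and 0.35 TPM), Myf5 (0.08 and 0.14 TPM) and Pax7 (0.01 and 0 TPM) were near 0. Whether a skeletal muscle remnant contributed to Myh3, Myh8, Mylpf, Mybpc1 or the other chains and binding proteins above was not tested.

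Genes that fold, anchor and degrade myosin covered a wide range of levels. Of 9 folding and assembly genes, 8 had 1 TPM or more in each library, with a median level of 104 TPM over the 9, led by the chaperone Hspa8 (1653 and 1609 TPM), the giant filament protein Ttn (657 and 569 TPM) and the chaperone Hsp90aa1 (514 and 547 TPM). All 4 genes of the sarcomere-linked ubiquitin ligases did so, with Trim55 (161 and 146 TPM) and Trim63 (148 and 140 TPM) the highest. Trim54 (6.79 and 8.89 TPM) came next by mean, but Fbxo32 (7.53 and 6.79 TPM) was above it in replicate 1. Of the genes in these 2 lists with at least 100 counts, 8 and 4, none was past 1.5-fold in either direction. Their median log2 ratios were -0.01 and -0.03, close to the median of all genes.

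The transcription factors and nuclear receptors that are known to act on myosin genes all stood below Mylk3, the eighth of the 10 myosin genes by level. Of 19 listed, 18 had 1 TPM or more in each library, and the median level of the list was 31.7 TPM. The highest were the homeobox factor Nkx2-5 (103 and 104 TPM), Mef2a (92.8 and 88.8 TPM) and the zinc finger factor Gata4 (82.9 and 66.7 TPM). None of the 18 was past 1.5-fold in either direction, and 6 were higher and 12 lower in replicate 2, with a median ratio of -0.08.

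Sites that such factors are known to bind were looked for as letters in the 250 bases before each RefSeq gene start. The searches were for the MCAT core CATTCC (bound by TEAD factors), the GATA core GATAA, the CArG box (bound by SRF) and the MEF2 site, on both strands. A start within 50 nt of the start of the main transcript was tabulated for 8 of the 10 genes. The nearest tabulated starts of Myl2 and Myl4 lie 7762 and 26618 nt upstream of the main transcript, and no sequence is shown for them. The MCAT core was found in 5 of the 8 (Myh6, Myh7, Myl3, Myl7 and Mylk3) and in 12.6% of 32851 mouse promoters, and the GATA core in 5 of the 8 (Mybpc3, Mybphl, Myh7b, Myl3 and Myl7) and in 22.6% of promoters. A CArG box was found in 2 (Myl3 and Myl7) and in 1.47% of promoters, and a MEF2 site in 1 (Mybpc3) and in 2.92%. A match of letters describes a sequence and is no evidence of binding.

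The promoters of the alpha and beta heavy chains and of a ventricular and an atrial light chain are shown 5′ to 3′ on the gene's strand, since these genes differed in opposite directions between the libraries. Capitals mark the matches, and bases inside the M21 first exon are left off (RefSeq, GRCm38.p6).
Myh6: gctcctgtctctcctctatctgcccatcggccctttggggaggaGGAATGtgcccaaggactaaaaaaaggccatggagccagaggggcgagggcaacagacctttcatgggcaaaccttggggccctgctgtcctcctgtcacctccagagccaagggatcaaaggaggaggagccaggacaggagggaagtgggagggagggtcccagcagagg
Myh7: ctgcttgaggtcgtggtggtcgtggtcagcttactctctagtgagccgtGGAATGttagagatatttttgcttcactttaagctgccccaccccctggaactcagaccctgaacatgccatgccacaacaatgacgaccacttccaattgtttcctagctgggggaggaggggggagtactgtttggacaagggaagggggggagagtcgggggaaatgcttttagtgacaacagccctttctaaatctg
Myl3: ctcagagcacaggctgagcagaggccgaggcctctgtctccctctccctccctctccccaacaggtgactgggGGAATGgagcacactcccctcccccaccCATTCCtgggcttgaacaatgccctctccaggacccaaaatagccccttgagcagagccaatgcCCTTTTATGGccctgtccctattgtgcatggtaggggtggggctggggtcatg
Myl7: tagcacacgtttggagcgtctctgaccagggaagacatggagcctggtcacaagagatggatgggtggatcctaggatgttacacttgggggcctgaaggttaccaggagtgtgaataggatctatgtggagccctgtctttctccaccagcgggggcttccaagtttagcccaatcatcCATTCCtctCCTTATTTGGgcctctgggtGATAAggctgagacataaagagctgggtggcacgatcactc
They lie at chr14:54966642-54966857 (minus strand), chr14:54994627-54994876 (minus strand), chr9:110763428-110763645 (plus strand) and chr11:5898783-5899032 (minus strand). The heavy chain promoters each hold the MCAT core once, as its reverse complement GGAATG, at 206 to 201 bases before the RefSeq start in Myh6 and at 201 to 196 in Myh7. Myl3 holds the core once on each strand and a CArG box, CCTTTTATGG, at 85 to 76 bases before its start. Myl7 holds the core CATTCC, then a CArG box, CCTTATTTGG, at 61 to 52, then GATAA, with no overlap between them. A GATA core of Myl3 lies at 18 to 14 bases before the RefSeq start, within the first exon of M21, and is not shown. Both light chain genes thus hold the MCAT core, a CArG box and the GATA core as letters. Whether these letters bear on the difference between the libraries was not tested.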

How the data were processed

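Total RNA sequencing of 2 pools of embryonic mouse hearts was used, 1 library each from 10 ng of RNA longer than 200 nt, extracted with a mirVana kit, per the labels' protocols. Per the file headers, the deposited gene and transcript tables hold the authors' estimated counts, raw and often fractional, and TPM, which covers spike-ins too and uses an effective length 99 nt under the length. The deposited tables also give FPKM, not used here, the percent of gene TPM per transcript, and credibility intervals, entered as a score because their level is not stated by the authors. The build is mm10, per the labels, and the aligner is not given in the sources used here, nor is the use of strand. The deposited values are estimates in which short transcripts and shared sequence carry error that counts do not show.

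Names, classes and coordinates came from GENCODE M21 (GRCm38, the same assembly), and 39 of 45 matched transcripts had the same length there. Library sizes and ratios used Ensembl gene rows only. Ratios are log2 of CPM after adding 0.5 to the counts, scaled by TMM (edgeR 4.0.16, R 4.3.3) over the 17158 genes with 10 or more counts in both, factors 0.996 and 1.00. Tables were joined with pandas 2.3.3 in Python 3.11.15. Data were simulated on the 12985 genes compared, with Poisson counting error only. There 199 of 200 genes changed 2-fold were called past 1.5-fold in the right direction, and 2 unchanged genes were called. Variation between pools was not simulated, so this checks the calculation and not how reliable a call is between these pools. An exact sign-flip test over 2 libraries has a smallest two-sided p of 0.5, and no test was run, and ± is the SD over the 2 libraries.

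The members and lists were chosen with earlier results of these data known. Named are all 10 members, their transcripts with at least 5% of gene TPM in either library, the 3 highest genes of each list and those at 0. Alternatives were DESeq2 1.42.0 size factors, total counts, TPM + 0.1, posterior mean values, protein-coding transcripts only, TPM over nuclear protein-coding genes, other folds, no minimum count and each replicate left out. Depth was 37160624 and 40360242 estimated counts. Reads carry no molecular identifiers and may be copies of 1 molecule, so intervals cover counting error only.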

Additional observations from a re-analysis of the deposited data

How the results depend on the processing

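The direction between the libraries was kept by 10 of the 10 myosin genes under DESeq2 size factors, total counts, TPM + 0.1 and posterior mean counts, and these settings shifted the median of all genes by 0.00, 0.01, -0.05 and 0.00 on the log2 scale. The Myh6 and Myl7 shares stayed within 1 SD of the values above with posterior means, counts or protein-coding transcripts only, and the Myl4 share fell to 20.2% (mean of both libraries) with protein-coding transcripts only, a setting that drops the retained intron transcript Myl4-204. Of the 10 myosin genes, 1 was past 1.5-fold, 5 past 1.2-fold and 0 past 2-fold. Of the 12985 annotated genes compared, 907, 2902 and 453 were. Those shares were 4.77% higher and 2.21% lower at 1.5-fold, and 11.2% higher and 11.1% lower at 1.2-fold. With no minimum count, and so over a larger set, 8791 annotated genes were past 1.5-fold. TPM over nuclear protein-coding genes alone raised the mean of 9 of the 10 genes by more than 1 SD. Leaving out a replicate leaves the other library's value. The values rest on 2 libraries, and depth limits Myh7b and Mybphl most. No paired analysis was possible because there is only 1 group.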
